A study of Mus musculus with 4 samples.

Results

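The genes described here encode the proteins of the cytosolic ribosome, measured in resting CD4 T cells of mouse spleen. A gene was taken as a member if a probe set of the array named it alone and its symbol began with Rps or Rpl and a number, with Rplp0, Rplp1, Rplp2 and Rpsa added and the Rps6k kinases and processed copies marked as pseudogenes left out. This gave 63 of the 19937 genes that had a probe set of their own, 25 with small-subunit symbols and 38 with large-subunit symbols. Where several probe sets named 1 gene, the one of highest mean stood for it. RNA was measured on 4 Affymetrix Mouse Gene 1.0 ST arrays, 2 of IfitmF-/- cells and 2 of WT cells. IfitmF-/- mice, labelled Ifitm-/-, lack the whole family of interferon-inducible transmembrane genes in every cell and were kept on a C57BL/6 background. WT controls carried the intact family, and mice of both groups were 6 to 8 weeks old. Cells were taken straight from spleen, enriched by magnetic negative selection and not stimulated. Per the study, each array held RNA pooled from a pair of mice and the replicates were purified separately.

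Each cytosolic ribosome is built from a small subunit, which reads the mRNA, and a large subunit, which joins amino acids and lets the new chain out through an exit tunnel. Ribosomal protein mRNAs are among the most abundant of a cell. Most begin with a cytosine and a run of pyrimidines, the 5′ terminal oligopyrimidine (TOP) start, through which the kinase complex TORC1 mainly sets their translation. Resting T cells hold few ribosomes and build many more once activated. Changes below are differences in mRNA signal, and translation was not measured.

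The RefSeq promoter windows (GRCm38.p6, 250 bases before to 50 bases from the annotated start on) were found for 51 of the 63 members. Stretches from 40 bases before the start to 30 bases from it on are printed for the 3 genes that passed the test and for 3 genes that stayed close to 0 and have a TOP start. The first transcribed base is the base after the first 40. Capitals mark CCGGAAG on either strand, the core bound by ETS-family transcription factors, and, in the last 3 sequences, the TOP start. They lie on chr3:86142639-86142708 (minus strand) for Rps3a1, chr9:66946046-66946115 (plus strand, the first of its windows) for Rps27l, chr11:68901526-68901595 (plus strand) for Rpl26, chr4:86857338-86857407 (minus strand) for Rps6, chr17:27635215-27635284 (minus strand) for Rps10 and chr11:114668540-114668609 (plus strand) for Rpl38.
Rps3a1: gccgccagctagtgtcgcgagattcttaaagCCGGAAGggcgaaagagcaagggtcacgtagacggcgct
Rps27l: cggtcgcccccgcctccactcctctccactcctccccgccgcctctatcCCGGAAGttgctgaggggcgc
Rpl26: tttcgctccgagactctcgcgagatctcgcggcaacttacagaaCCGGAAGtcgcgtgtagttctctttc
Rps6: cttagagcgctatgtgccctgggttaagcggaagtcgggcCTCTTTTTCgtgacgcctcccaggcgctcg
Rps10: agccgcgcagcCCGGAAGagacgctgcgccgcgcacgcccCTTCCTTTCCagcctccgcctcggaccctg
Rpl38: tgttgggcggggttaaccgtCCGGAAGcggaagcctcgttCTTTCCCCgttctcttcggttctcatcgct

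A start of C followed by at least 4 pyrimidines, on the strand of the gene, stood at the annotated first base of 10 of these 51 members (19.6%), against 813 of 27025 genes in the promoter table (3.01%) and 0 of 68 mitochondrial ribosomal protein genes. The annotated start can lie some bases from the true one, so a gene outside this count may still have a TOP start. CCGGAAG was in the whole windows of 19 of the 51 members (37.3%), 25 of 68 mitochondrial ribosomal protein genes (36.8%) and 2683 of all 27025 genes (9.93%), both strands searched. CTTTCC, a short pyrimidine motif searched on both strands, was in windows of 26 members (51.0%) and of 29.3% of all genes. None of the 3 genes that passed the test had a TOP start at its annotated first base, and all 3 had CCGGAAG. The 19 members with CCGGAAG had a median change of 0.00 and the 32 without it one of 0.11. The 10 with CCGGAAG in the stretch around the start had one of 0.13, but both groups with CCGGAAG include the 3 genes that passed. How many of all genes have it in that stretch was not counted. The 10 with a TOP start had a median change of -0.01 against 0.13 in the other 41. A match is a description of the letters in the window and no test was made of it.

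Rps3a1, Rps27l and Rpl26 were higher in IfitmF-/- cells than in WT cells, and the other 60 ribosomal protein genes were not called in either direction. Changes are given in log2 units of the array signal as IfitmF-/- minus WT, so that 1 unit is a doubling, and a gene was called at an adjusted p under 0.05 (limma, Benjamini-Hochberg over all 34760 probe sets). In this test 3 members were called higher (4.76%) and 0 lower, where 4.96% of all genes were called higher and 3.61% lower. The share called higher was thus near that of genes at large. At an unadjusted p under 0.05, 20 members were higher and 1 lower, beside 14.3% of all genes higher and 11.5% lower. Both IfitmF-/- arrays lay above both WT arrays for 32 members (50.8%, against 27.9% of all genes) and below them for 10 members (15.9%, against 30.8% of all genes). The share above was much the same in mitochondrial ribosomal protein genes (50.6%, with 23.4% below). The median change was 0.09 over the members and -0.02 over all genes. Changes ran from -0.29 to 1.04, and 24 members changed by less than 0.1 either way.

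**Figure D1:**
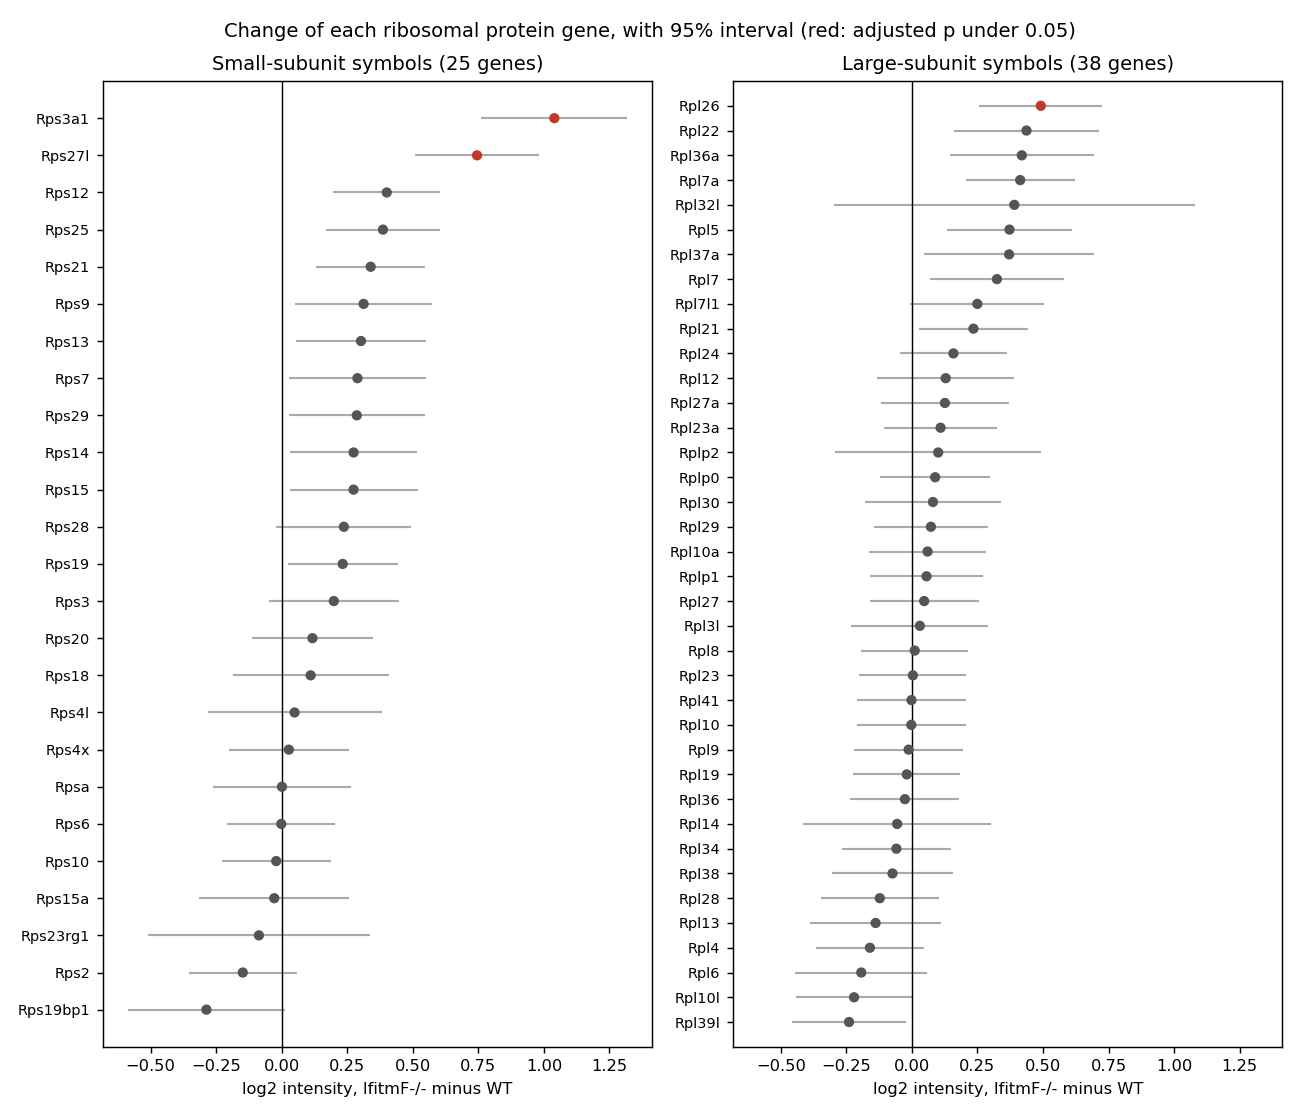
Change of each of the 63 genes (log2 intensity, IfitmF-/- minus WT, horizontal axis), as a point with the 95% interval of the limma fit as a line, in order of size within small-subunit (left) and large-subunit (right) symbols. Red points are Rps3a1, Rps27l and Rpl26, the 3 genes with an adjusted p under 0.05, and 43 of the 63 points lie above 0.

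Rps3a1, a protein of the small-subunit platform, gave log2 signals of 10.78 and 10.59 on the IfitmF-/- arrays, against 9.68 and 9.60 on the WT arrays. Both IfitmF-/- values lay far above both WT values, a difference of 1.04 ± 0.10 (SE, n = 2 each; 95% interval 0.76 to 1.32) or 2.06-fold (adjusted p = 0.0191, limma). It was the only member that changed by over 1 unit. It had 1 probe set, so no other could be compared. In the numbering of the array this probe set falls between those of the chromosome 13 genes Mrps27 and Mrpl32. Rps3a1 itself lies on chromosome 3, as does Mrpl24, whose probe set is numbered far from it. Where its probes match, and whether a processed copy of the gene gives or adds to this signal, was not tested.

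Rps27l is a paralog of Rps27 that is induced by p53 in man and mouse. Its signals were 9.92 and 10.01 on the IfitmF-/- arrays, against 9.26 and 9.18 on the WT arrays. The groups were well apart, by 0.74 ± 0.09 (SE, n = 2 each) or 1.68-fold (adjusted p = 0.0238, limma). Its parent Rps27 was named only together with other genes, so the pair could not be compared. The study lists Rps27l and Rps7 (change here 0.29) among its genes of interest, a subset of those it found differentially expressed. Rps24 and Rps27a, which had no value of their own here, are listed too. That list does not hold Rps3a1, and the reason for the difference was not tested.

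Rpl26, which lines the mouth of the peptide exit tunnel, reached 10.79 and 10.70 on the IfitmF-/- arrays, against 10.30 and 10.21 on the WT arrays. The difference of 0.49 ± 0.09 (SE, n = 2 each; 1.41-fold) just passed the threshold (adjusted p = 0.0474, limma), and after cyclic loess normalization it did not (adjusted p = 0.0534). The study's methods also require a fold change over 2 and a signal range. Applied to the fit made here, these left Rps3a1 alone called, although the study itself lists Rps27l. With any 1 of the 4 arrays left out none of these genes passed, with adjusted p of 0.0696 to 0.127 for Rps3a1, 0.0774 to 0.148 for Rps27l and 0.119 to 0.232 for Rpl26, and then no probe set of the array was called at all, while the changes stayed between 0.94 and 1.14, 0.70 and 0.79, and 0.44 and 0.54.

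**Figure D2:**
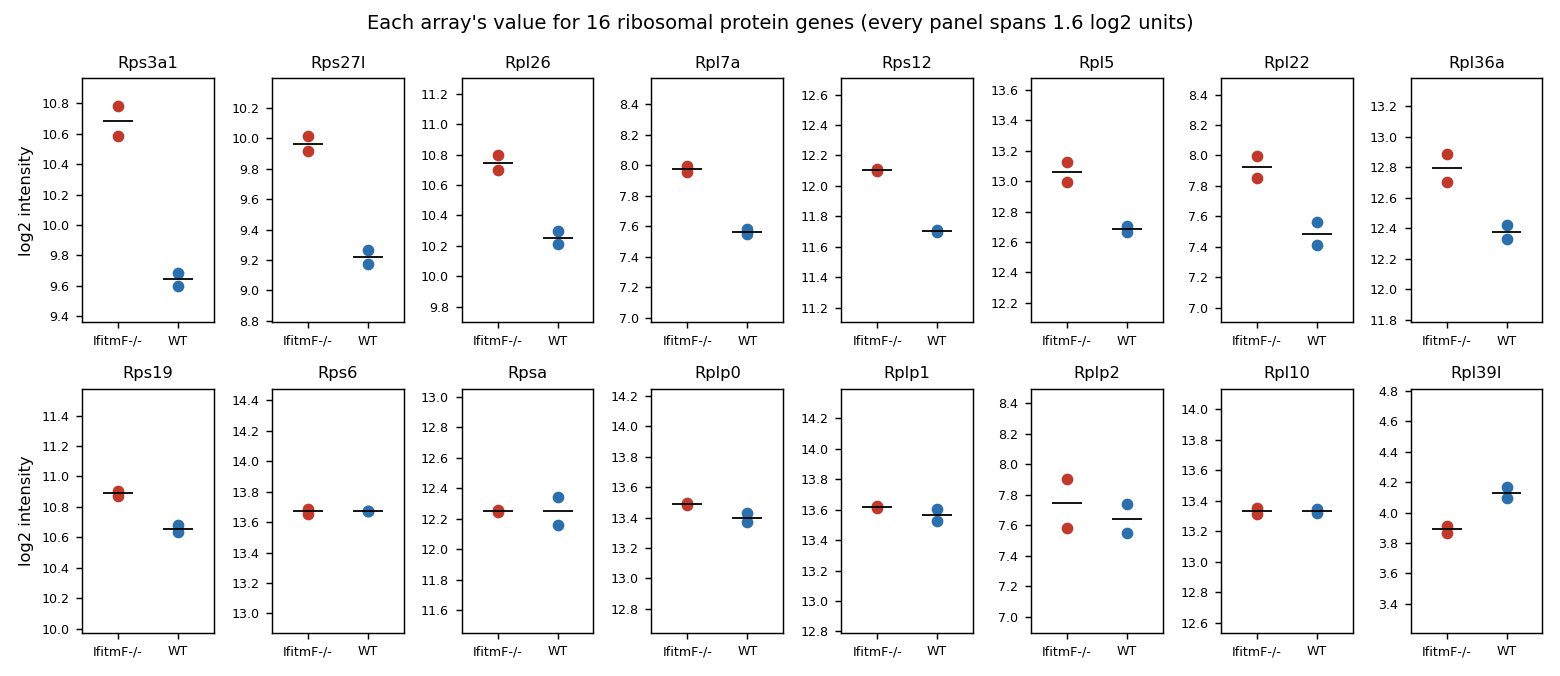
Log2 intensity of 16 ribosomal protein genes on each array (vertical axis), IfitmF-/- in red at the left of each panel and WT in blue at the right, with the group means as black lines. Every panel spans the same height in log2 units, so that the gap for Rps3a1 can be compared with the overlap for Rps6, Rpsa and Rpl10.

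Just outside the threshold stood 7 further members with an adjusted p of 0.05 to 0.1, all with higher signals in IfitmF-/- cells. Of these, Rpl5, Rpl22 and Rpl36a are described below, and Rpl7a, Rps12, Rps25 and Rps21 were singled out after their values had been seen. Rps12 gave 12.10 and 12.11 on the IfitmF-/- arrays, against 11.71 and 11.70 on the WT arrays, a difference of 0.40 (adjusted p = 0.0533, limma). Rpl7a gave 7.96 and 8.00, against 7.58 and 7.55 in WT, a difference of 0.41 (adjusted p = 0.0523, limma). For both genes the arrays of a group lay close together and the groups were clearly separate, though not called. Rps25 (0.39) and Rps21 (0.34) had adjusted p of 0.0653 and 0.0767. These 4 genes were called when only the probe sets at or above the median signal were tested, as were Rpl5 and Rpl22, which brought the count of members called higher to 9 of 59 and lower to 0. In that test 14.2% of all genes were called higher and 10.3% lower.

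Rpl5 carries the 5S rRNA into the large subunit together with Rpl11, and both can bind the p53 regulator Mdm2. Rpl5 gave 13.124 and 12.996 on the IfitmF-/- arrays, against 12.707 and 12.668 on the WT arrays. The groups did not overlap and differed by 0.37 ± 0.09 (SE, n = 2 each; adjusted p = 0.0826, limma). Its 4 probe sets gave 0.34 to 0.39, though 1 of them was dim, at a mean of 3.91. Rpl11 was named only with other genes and has no value here.

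Rpl22 is needed in mice for alpha-beta T cells to develop and sits on the outer face of the large subunit. It gave 7.85 and 8.00 on the IfitmF-/- arrays, against 7.56 and 7.41 on the WT arrays. The difference was 0.44 ± 0.10 (SE, n = 2 each; adjusted p = 0.0827, limma), with both IfitmF-/- values above both WT values.

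Small-subunit members had a median change of 0.23 and large-subunit members one of 0.06, and the difference between the subunits was not tested. In the small subunit 2 of 25 were called and 15 had both IfitmF-/- arrays above both WT arrays (60.0%), with 2 the other way. In the large subunit 1 of 38 was called, and the arrays did not overlap for 17 higher (44.7%) and 8 lower. Of all genes 4.96% were called higher, and the arrays did not overlap for 27.9% higher and 30.8% lower. Among all genes of a mean of 10 or more these last shares were 41.4% and 39.6%. The mean log2 signal over all members was 11.19 and 11.13 on the IfitmF-/- arrays, against 11.03 and 11.02 on the WT arrays.

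Rps6 and Rpsa were among the members with changes nearest 0. Rps6, the substrate of the S6 kinases downstream of TORC1, gave 13.69 and 13.66 on the IfitmF-/- arrays, against 13.68 and 13.67 on the WT arrays, with a 95% interval of the change of -0.21 to 0.20. Rpsa, the laminin receptor protein of the small subunit, gave 12.26 and 12.24, against 12.16 and 12.34 in WT. In both genes the arrays of the groups overlapped, and the change was 0.00 in each. Of 7 probe sets that named Rps6, all but the dimmest changed by -0.02 to 0.03, and the dimmest by 0.39 (adjusted p = 0.206, limma). Of 5 that named Rpsa, the 3 brightest changed by -0.05 to 0.03 and the 2 dimmest by -0.28 and -0.40, with the IfitmF-/- arrays below the WT arrays in both (adjusted p = 0.112 and 0.128, limma).

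The ribosomal stalk, which recruits the elongation factors, is formed by Rplp0, Rplp1 and Rplp2 on a base held by Rpl12. Rplp0 gave 13.49 and 13.48 on the IfitmF-/- arrays, against 13.37 and 13.43 on the WT arrays (change 0.09). Rplp1 gave 13.63 and 13.61, against 13.52 and 13.60 in WT (change 0.06). Rplp2 gave 7.90 and 7.58, against 7.74 and 7.55 in WT (change 0.10), and its groups overlapped. The stalk list had a median of 0.09 over its 4 genes with 0 called, and Rpl12 had a change of 0.13 (adjusted p = 0.469, limma). All 4 changes were small beside their 95% intervals, which included 0.

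A list of large-subunit proteins at or around the peptide exit tunnel had 5 of 9 genes measured alone, with changes on both sides of 0. It took in Rpl22, which does not line the tunnel. Rpl26 was the highest (0.49), Rpl23a changed by 0.11, and Rpl4 changed by -0.16 (adjusted p = 0.280, limma).

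In man, loss of 1 copy of certain ribosomal protein genes causes Diamond-Blackfan anaemia, a failure of red cell formation. Of 15 mouse counterparts 8 were measured alone, with a median change of 0.26, 1 called higher (Rpl26) and 7 with both IfitmF-/- arrays above both WT arrays, as was so for 41.4% of all genes of a mean signal of 10 or more, where all 8 lie. Rps19, the gene most often affected, gave 10.87 and 10.90 on the IfitmF-/- arrays, against 10.63 and 10.68 on the WT arrays. Its groups were separate by 0.23 ± 0.08 (SE, n = 2 each), which was not called (adjusted p = 0.159, limma). Rps29 changed by 0.29 (adjusted p = 0.159, limma). This list shares Rpl26 and Rpl5 with those above and adds no independent count.

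Paralogs that replace a ribosomal protein in certain tissues were measured for 6 of 10 genes, and apart from Rps27l none was called. Rpl39l, a testis-enriched copy of Rpl39, gave 3.91 and 3.87 on the IfitmF-/- arrays, against 4.17 and 4.09 on the WT arrays, and was the only member with an unadjusted p under 0.05 and a lower signal in IfitmF-/- cells (-0.24, adjusted p = 0.160, limma). Rpl10l, a testis-enriched copy of Rpl10, gave 5.58 and 5.50, against 5.79 and 5.73 in WT (-0.22, adjusted p = 0.193). Both were below the median signal of the array's probe sets (6.26), where most probe sets have little signal above background. Rpl3l, the striated-muscle form of Rpl3, was as dim, at 5.03 and 4.94 in IfitmF-/- cells and 4.87 and 5.03 in WT cells, with overlap. Rps4l changed by 0.05, also with overlap, and Rpl7l1, a protein of ribosome assembly, by 0.25 (adjusted p = 0.197, limma).

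Among X-linked members Rps4x gave 11.81 and 11.86 on the IfitmF-/- arrays, against 11.76 and 11.86 on the WT arrays (change 0.03). Rpl10, which is added late to the large subunit, gave 13.31 and 13.35, against 13.35 and 13.32 in WT (change 0.00). Rpl36a gave 12.88 and 12.70, against 12.42 and 12.33 in WT, a difference of 0.42 (adjusted p = 0.0879, limma). Only Rpl36a had separate groups. Rpl39 was not measured alone. The genotypes also differed in the X-inactivation transcript Xist, at 4.86 and 4.43 on the IfitmF-/- arrays, against 11.32 and 11.25 on the WT arrays, while the Y-linked Eif2s3y was at 9.48 and 9.61, against 3.90 and 4.05. The labels give no sex, and sex and genotype cannot be told apart for any result here.

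Counts of calls vary with the signal of the probe sets tested, and 47 of 63 members had a mean log2 signal of 10 or more. Among all genes of that signal 8.39% were called higher and 12.1% lower, and their arrays did not overlap for 41.4% higher and 39.6% lower. For the 47 members the same counts were 2 higher (4.26%) and 0 lower, with 26 separate in the higher direction (55.3%) and 7 in the lower (14.9%). The 13 members of a mean of 13 or more changed by only -0.15 to 0.27. The median half-width of the unadjusted 95% interval was 0.23 for all members and 0.21 for these 13. Changes smaller than about this could not be told from 0 with 4 arrays even before adjustment. After adjustment larger changes, such as 0.44 for Rpl22, were not called either. Signal is no measure of transcript abundance between genes, since probe sets differ in how well they bind.

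**Figure D3:**
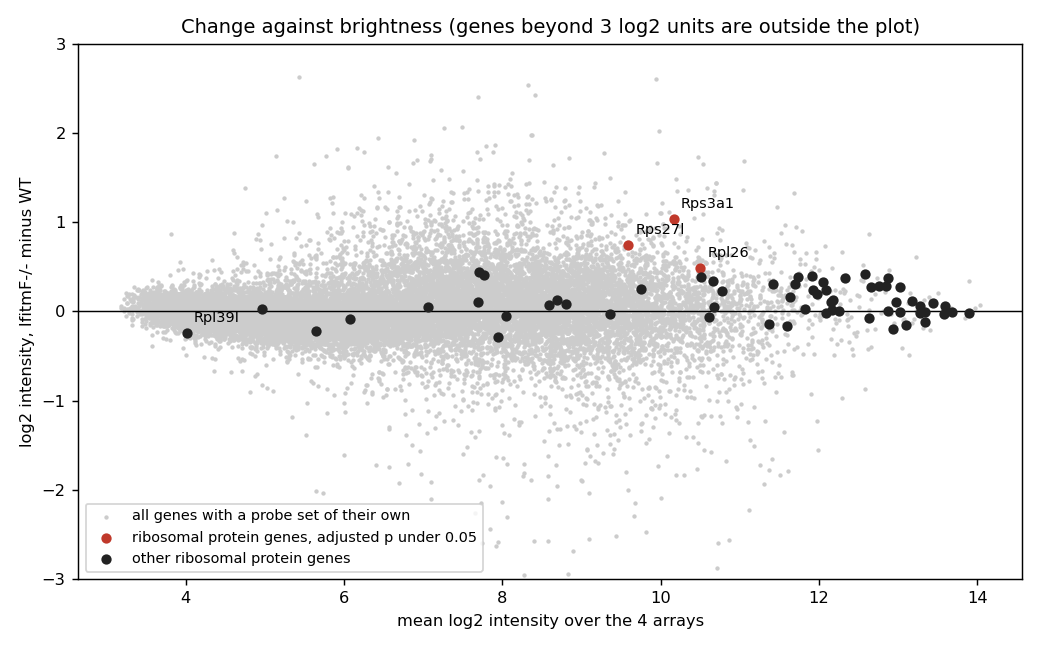
Change (log2 intensity, IfitmF-/- minus WT, vertical axis) against the mean log2 intensity over the 4 arrays (horizontal axis) for all 19937 genes in grey and the 63 ribosomal protein genes in black or, where called, red. Of the members 47 lie at a mean of 10 or more, and Rps3a1 stands 1.04 units above 0.

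The array holds many probe sets for single ribosomal protein genes, 195 for the 63 members. Processed copies of these genes lie across the genome with nearly the same sequence, so that a probe set can take up signal of a copy. For 38 members with more than 1 probe set the direction could be compared, and in 24 of them every probe set had the same sign. Rps12 was higher by 0.17 to 0.60 in 7 probe sets, the dimmest of which (mean 3.83) had overlapping groups. Rpl7 was higher by 0.22 to 0.38 in 4 and Rps29 by 0.26 to 0.37 in 4, and Rpl6 was lower by 0.19 to 0.22 in 3. None of these probe sets was called. These genes were chosen after their values had been seen.

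Over the 195 probe sets 9 were called higher and 1 lower, beside 4.48% and 3.95% of all probe sets of the array. Beside the 3 members called above, the higher ones belonged to Rps25 (0.55 and 0.95), Rpl36a (0.82), Rpl21 (0.57), Rps21 (0.53) and Rps7 (0.44), each a dimmer probe set than the one that stood for the gene. The lower one was the dimmest Rpl10 probe set at 6.88 and 6.82 on the IfitmF-/- arrays, against 7.26 and 7.34 on the WT arrays (-0.45, adjusted p = 0.0499, limma), whereas the 4 other Rpl10 probe sets changed by -0.03 to 0.15. So the result for a gene depended on which of its probe sets was read. A further 205 probe sets named a ribosomal protein gene along with other genes, of which 11 were called higher and 0 lower, and no gene is named from them.

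**Figure D4:**
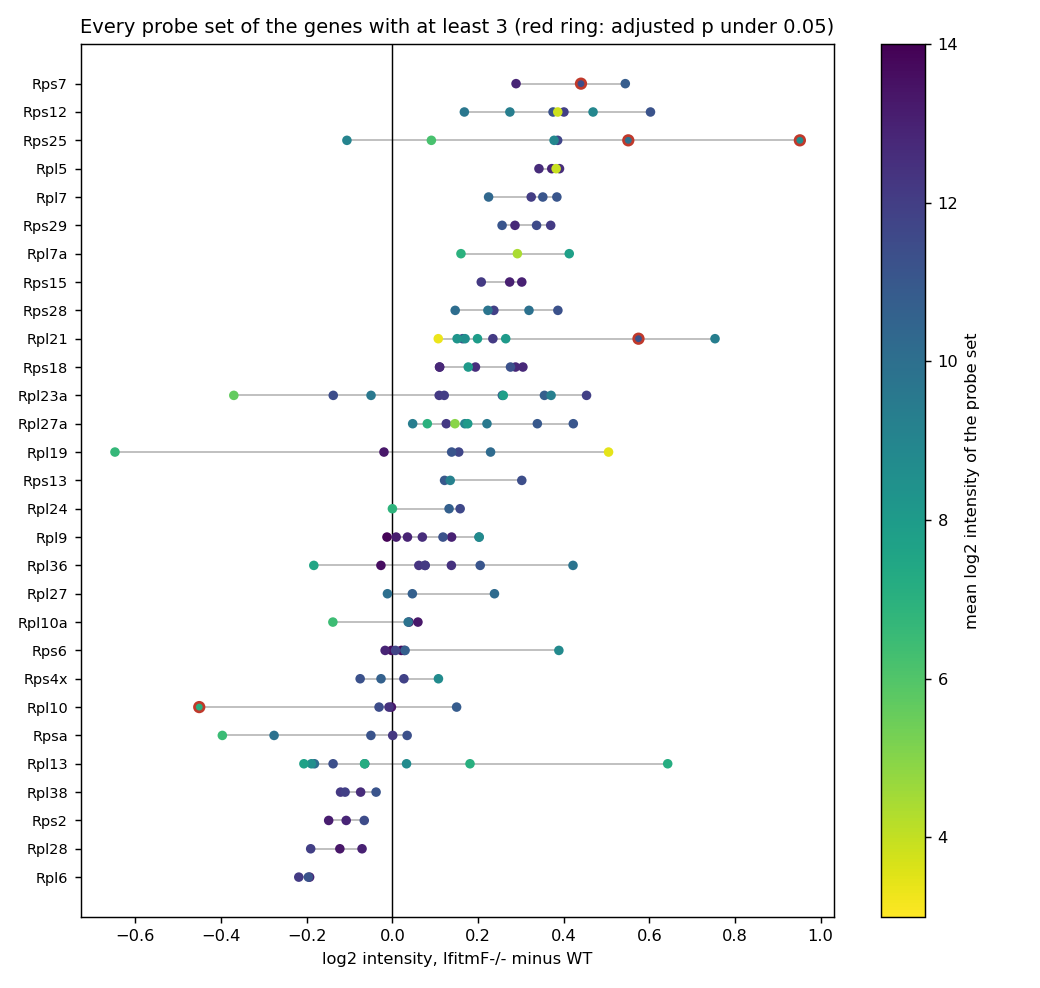
Change in each probe set (log2 intensity, IfitmF-/- minus WT, horizontal axis) for the members with at least 3 probe sets, ordered by their median, with a grey line from lowest to highest and colour for the mean log2 intensity. Red rings mark probe sets with an adjusted p under 0.05. Rpl5, Rps29 and Rpl6 have tight rows, and Rpl19, Rps25 and Rpl13 wide ones.

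Of 89 protein-coding genes that the symbol rule takes from the gene table, 20 were named only in probe sets with other genes and 7 by no annotated probe set used here, among them Rps27a, a fusion of ubiquitin with a ribosomal protein. The rule also took in Rps19bp1, which encodes a partner of Rps19 and had the lowest change (-0.29, adjusted p = 0.203, limma), and Rps23rg1, a retroposed copy of Rps23. Without these 2 genes the 3 calls stood.

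The ribosome's proteins under other names, the other TOP mRNAs and the genes that build and regulate ribosomes were read beside the members. Fau, which encodes a small-subunit protein fused to a ubiquitin-like one, gave 12.79 and 12.84 on the IfitmF-/- arrays, against 12.77 and 12.84 on the WT arrays, and the groups overlapped. Of 18 other TOP mRNAs measured, 0 were called in either direction, with changes from -0.24 to 0.26 and a median of -0.03. The 4 of smallest p were Naca (0.26), of the nascent-chain complex, Eef1b2 (0.23), an elongation factor subunit, Eif3l (-0.24), of initiation factor eIF3, and Eef2 (-0.19), the translocase. They went both ways in equal number. Among snoRNA host transcripts, which carry TOP starts too, Gas5 changed by 0.24 and Snhg5 by -0.26, neither called.

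Mitochondrial ribosomal proteins, 77 genes whose ribosomes stand in the mitochondrion, had 4 called higher (5.19%) and 1 lower (1.3%), beside 4.96% and 3.61% of all genes. Their median change was 0.13, beside 0.09 for the cytosolic members. Both IfitmF-/- arrays lay above both WT arrays for 39 of the 77 (50.6%) and below them for 18 (23.4%). The cytosolic members had 50.8% and 15.9%, and all genes 27.9% and 30.8%. At an unadjusted p under 0.05 (limma), 23 mitochondrial genes were higher and 6 lower. Mrps33 gave 8.54 and 8.72 on the IfitmF-/- arrays, against 7.91 and 7.68 on the WT arrays (0.83, adjusted p = 0.0342, limma). Mrpl24 (0.55) and Mrpl50 (0.68) were also called higher, and Mrpl46 was called lower (-0.47).

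Ribosome biogenesis genes had a lower median, -0.12 over 59, with 2 called higher (3.39%) and 4 lower (6.78%), beside 4.96% and 3.61% of all genes. Riok1, a kinase of small-subunit maturation, gave 8.32 and 8.55 on the IfitmF-/- arrays, against 9.59 and 9.74 on the WT arrays (-1.23, adjusted p = 0.018, limma). Imp4 (-0.57), of the small-subunit processome, was called lower too, as were Nmd3 (-0.58), the export adaptor of the large subunit, and Rrp15 (-0.45), both named after their values had been seen. Nop10 (0.76), which guides pseudouridylation, and Rpf2 (0.54), which helps seat the 5S particle, were called higher. For 33 of the 59 genes both IfitmF-/- arrays lay below both WT arrays (55.9%), beside 30.8% of all genes. For 11 they lay above (18.6%), beside 27.9% of all genes.

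Initiation factors had 1 of 31 called higher, Eif1b (0.62), and 1 lower, Eif4e2 (-0.64), a cap-binding protein. Each count was 3.23% of the list, near the shares of all genes called higher (4.96%) and lower (3.61%). The next 2 by p, Eif2b3 (0.45) and Eif5 (-0.33), were not called. Of 19 measured genes of TORC1, its regulators and the regulators of TOP mRNAs 4 were called higher (21.1%) and 0 lower, with a median of 0.00. Beside this stand 4.96% of all genes called higher and 3.61% lower. Mlst8, a subunit of TORC1 and TORC2, gave 7.98 and 8.18 on the IfitmF-/- arrays, against 7.36 and 7.46 on the WT arrays (0.67, adjusted p = 0.0393, limma). Larp4b (0.59), an RNA-binding protein, Eif4ebp2 (0.46), a repressor of cap-dependent translation, and Tbc1d7 (0.80), of the TSC complex that restrains TORC1, were called too. These 4 genes hold both an activating subunit and restraining ones.

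**Figure D5:**
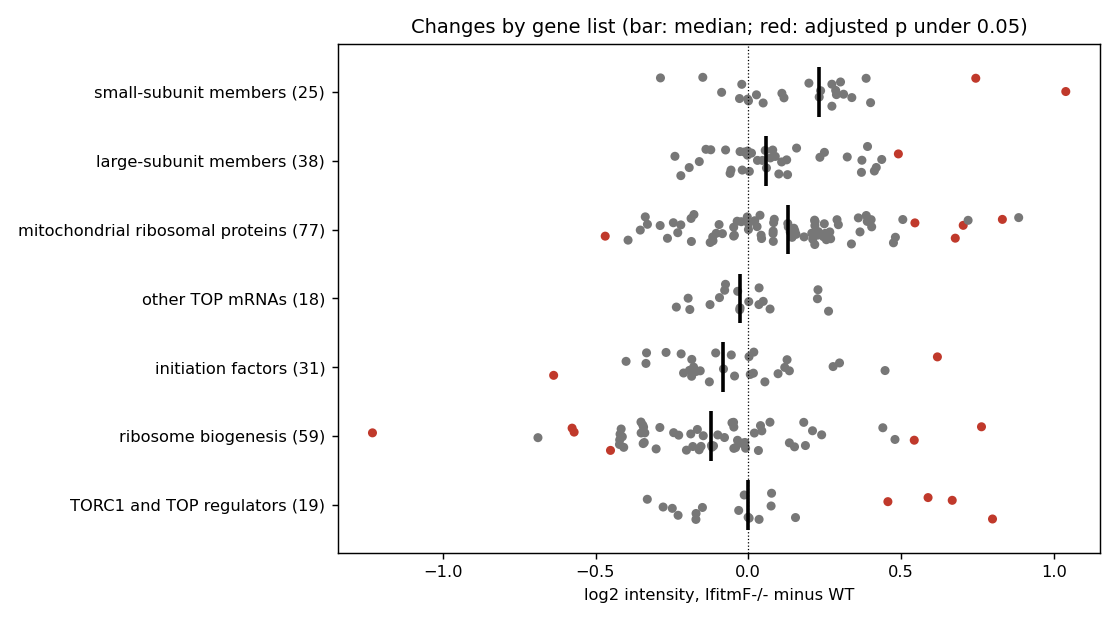
Change of every measured gene (log2 intensity, IfitmF-/- minus WT, horizontal axis) in 7 gene lists, with the number of genes in brackets, the median as a black bar and called genes in red. Points are spread vertically only so that they can be told apart. Small-subunit members have the highest median (0.23) and ribosome biogenesis genes the lowest (-0.12).

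The checks of the samples bear on all of these values. The targeted genes Ifitm1, Ifitm2 and Ifitm3 lay at 4.36 to 6.05 on the IfitmF-/- arrays, against 6.54 to 9.26 on the WT arrays, over 6 probe sets. CD4 T cell markers averaged 11.75 and 11.74 on the IfitmF-/- arrays, against 11.70 and 11.72 on the WT arrays, with all 7 measured markers at a mean of 10.3 or more. Of these Cd3d (0.59), Cd3g (0.59) and Il7r (0.46) were called higher, and Ccr7 (-0.87) and Cd28 (-0.74) lower. Markers of some other cells, which have ribosomes of their own, also differed. Erythroid markers averaged 9.72 and 9.58 on the IfitmF-/- arrays, against 8.07 and 9.05 on the WT arrays, with 3 of 4 separate between the groups, and plasma cell markers averaged 7.71 and 7.74, against 8.75 and 8.41, with 6 of 6 separate. Neutrophil markers averaged 5.38 and 5.56, against 4.91 and 4.86, with 6 of 6 separate and all of them dim. B cell markers averaged 7.54 and 7.92, against 9.16 and 7.62, and cycling markers 8.78 and 8.65, against 7.42 and 8.65. The groups overlapped in both averages, though for the cycling markers only by 8.650 against 8.651. Taken singly, 3 of 4 cycling markers were separate in the higher direction and 2 of 9 B cell markers in the lower. The averages overlapped too in CD8 T cell markers (7.21 and 7.24, against 7.68 and 7.14), with 1 of 2 separate and lower. So did those of myeloid markers (7.85 and 8.68, against 8.50 and 7.85), with 1 of 8 separate and higher. Platelet markers averaged 8.62 and 9.78, against 8.50 and 8.10, with 2 of 5 separate. NK cell markers averaged 7.90 and 7.68, against 7.77 and 7.40, with Nkg7 called lower (-0.89) and 3 of 7 separate in the higher direction. The first WT array stood apart in the B cell, erythroid and cycling markers and the second IfitmF-/- array in the platelet markers. In bulk RNA fewer cells of a type and less RNA per cell cannot be told apart, and the part of these cells in the ribosomal protein results was not tested.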

How the data were processed

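CD4 T cells of IfitmF-/- and WT spleens were measured on 4 arrays, 2 per group. The deposited intensity values were made by the authors with RMA, which corrects the background, equalises the distributions of the arrays and summarises probes. RMA and affy are the tools in the submitters' processing notes, with versions not given in the sources used here. RMA removes any shift common to all genes, so changes are relative to each array as a whole.

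The log2 of each value was fitted with limma 3.58.1 (R 4.3.3, lmFit and eBayes, no covariate) on all 34760 probe sets, with Benjamini-Hochberg adjustment over all and a call at 0.05. There were 2 residual degrees of freedom and 2.39 from the prior, and the number of arrays limits the precision. The script was tested on simulated data. In the platform annotation 21640 probe sets had a single gene, 1321 more than 1 and 11799 none, and 21553 of the single-gene ones were found in the GRCm38.p6 gene table, which served to update symbols. Promoter sequences were those of RefSeq on GRCm38.p6.

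Members and gene lists were chosen with earlier results of these data known. Named were all called members, a fixed set of members (Rpsa, Rplp0, Rplp1, Rplp2, Rps27a, Rps6, Rps19, Rpl5, Rpl11, Rpl22, the paralogs and the X-linked genes) and up to 4 genes of smallest p from each other list, with exceptions said in the text. The alternatives were another eBayes prior, normalization, filter on dim probe sets, choice of features, replicate block, call rule, t-test or probe set of a gene, and leaving out each array.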

Additional observations from a re-analysis of the deposited data

How the results depend on the processing

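With 2 arrays per group the calls of the 3 members did not hold under every alternative run. Their direction did, but it could hardly change. Many alternatives kept the same size of change, and both IfitmF-/- arrays lay above both WT arrays for each of these genes. Members called higher numbered 8 with a trended robust prior (5 small-subunit, 3 large-subunit), 5 after median centring (3 and 2), 2 after cyclic loess (2 and 0), and 9 when dim probe sets were left out, when only probe sets of 1 gene were tested or when 1 probe set per gene was tested (5 and 4 each time). Of all genes 6.14%, 5.72%, 4.66%, 14.2%, 8.01% and 8.03% were called higher in these tests, in the same order. Over probe sets of mean 10 or more, chosen after seeing the data, the count was 14 of 47 (9 and 5), beside 22.5% of all genes. The methods' filter on fold and range left 1 (1 and 0; 140 higher and 263 lower over all probe sets). The methods' t-test gave 11 higher and 5 lower at an unadjusted p under 0.05 (small-subunit 6 and 1, large-subunit 5 and 4) and 0 after Benjamini-Hochberg. At the unadjusted threshold 11.4% of all genes were higher and 10.3% lower.

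Whether the replicate numbers pair the samples is not known here. Deviations of same-numbered arrays correlated at -0.12 across probe sets, and this 1 value cannot show whether arrays shared a day or batch. With the replicate block 0 members and 0 probe sets were called, with adjusted p of 0.0638 for Rps3a1, 0.0811 for Rps27l and 0.106 for Rpl26. At an unadjusted p under 0.05 in that fit 15 members were higher and 0 lower, beside 8016 of all 34760 probe sets in either direction. A crossed replicate block, chosen after seeing the data, called 1 member (1 small-subunit, 0 large-subunit), 2 mitochondrial genes higher and 0 lower, and 468 higher and 507 lower over all probe sets, against 1557 and 1373 without a block.

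Leaving out 1 array each left 1 array in 1 of the groups, so only sizes of change are given for it here. Median changes then ran from 0.061 to 0.108 for the members, 0.183 to 0.246 for small-subunit and 0.0243 to 0.086 for large-subunit genes. Median centring moved the medians to 0.13, 0.28, 0.10 and, for mitochondrial genes, 0.17, a second quantile normalization moved the small-subunit median to 0.19, and the median over probe sets of a gene moved it to 0.20. Mitochondrial genes called higher and lower, with the shares of all genes in brackets, numbered 9 and 3 without dim probe sets (14.2% and 10.3%). They numbered 9 and 3 with probe sets of 1 gene (8.01% and 5.98%) and 10 and 3 with 1 probe set per gene (8.03% and 5.98%). By the unadjusted t-test they numbered 15 and 10 (11.4% and 10.3%), and by the adjusted t-test 0 were higher. They numbered 0 and 0 with the replicate block and with the methods' filter. Over probe sets of mean 10 or more only Mrps21 was left, with a change of 0.27, and it was not called. The causes of these differences were not tested.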
